A study of Mus musculus with 6 samples.

Results

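The activator protein 1 (AP-1) subunits are basic leucine zipper transcription factors, and the members described here are Fos, Fosb, Fosl1, Fosl2, Jun, Junb, Jund, Atf3, Maff and Mafk. They were chosen by gene symbol. Each of the 10 symbols matched 1 row of the 78409 in the deposited table, and 10 of 10 passed the filter on low counts that kept 14834 genes for testing. The cells were nephrogenic stroma of wild-type CD1 mouse kidneys at embryonic day 18, sorted by flow cytometry for the surface receptor PDGFRa and cultured for 18 h in medium with serum. The 3 low adhesion libraries came from coverslips with a film of the silicone PDMS soaked in 500 ng/mL bovine fibronectin, and the 3 high adhesion libraries from the same film soaked in 50000 ng/mL. Each of 3 litters gave 1 library on each substrate, so a replicate is a litter whose kidneys were pooled. The model is a primary culture of sorted cells, and the sorting medium of every group held Y27632, an inhibitor of the kinase ROCK.

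AP-1 binds DNA as a dimer. JUN proteins pair with themselves, with FOS proteins or with ATF proteins, whereas FOS proteins need a partner. FOS, FOSB, JUN and JUNB carry transactivation domains and their genes are known as immediate early genes, transcribed within minutes of serum, growth factor or mechanical stimuli. FOSL1 (also called FRA-1) and FOSL2 (FRA-2) lack that domain, and their genes are known as later or sustained outputs of ERK signalling. The small MAF proteins MAFF and MAFK also lack it, and act through CNC partners such as NRF2 or BACH proteins. The comparison asks how each subunit's mRNA differs between the substrates within a litter.

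Library totals ran from 12596249 to 13508257 counts, which made 1 count worth 0.0740 to 0.0794 CPM, the deposited unit in which every library has the same total. The labelled cell type was checked against its markers. All 9 stromal markers examined were detected, with summed levels of 5472 to 6273 CPM at low and 5382 to 6207 CPM at high adhesion. Of the other marker lists, 6 erythroid genes summed highest, to 200 to 317 CPM at low and 166 to 331 CPM at high adhesion. Over both substrates the sums were 66.8 to 97.9 CPM for 6 endothelial, 45.8 to 67.8 CPM for 5 nephron progenitor, 27.2 to 37.4 CPM for 5 podocyte, 16.1 to 43.7 CPM for 8 macrophage and leukocyte and 18.6 to 28.3 CPM for 8 epithelial genes. The T cell gene Cd3e and the ureteric gene Wnt9b were at or near 0. Of the stromal markers 7 fell at high adhesion, among them the sorting marker Pdgfra (30.7 to 21.1 CPM), and 1, Vim, rose. Of the endothelial markers 1 rose and 1 fell. The nephron progenitor marker Cited1 (18.4 to 22.4 CPM) and the podocyte marker Podxl (2.78 to 4.25 CPM) rose as well, and no macrophage, epithelial or erythroid marker passed the test. The part of other cells in the AP-1 values was not tested. In bulk RNA, fewer cells that express a gene and less RNA per cell cannot be told apart.

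The promoters of members that changed with adhesion are shown with that of Fos, which did not pass, because several members are known to be controlled by AP-1, ATF or CREB dimers at their own start sites. Sequences are RefSeq's, build GRCm38.p6, of the bases just before the start site, written 5′ to 3′ on the gene's strand. Fosl1 had no entry. Capitals mark matches, on either strand, to TGANTCA (the AP-1 element), TGANNTCA (its variant with 1 more base, which takes in the CRE) or TGACG (the CRE core), and a CArG box, the element of serum response factor, was searched for as well.
Jun (chr4:95052223-95052342, minus strand): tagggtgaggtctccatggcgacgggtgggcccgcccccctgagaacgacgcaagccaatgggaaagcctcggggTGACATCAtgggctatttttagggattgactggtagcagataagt
Atf3 (chr1:191183334-191183453, minus strand): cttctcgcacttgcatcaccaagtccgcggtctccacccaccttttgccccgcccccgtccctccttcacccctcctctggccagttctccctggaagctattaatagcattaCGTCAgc
Mafk (chr5:139791416-139791535, plus strand): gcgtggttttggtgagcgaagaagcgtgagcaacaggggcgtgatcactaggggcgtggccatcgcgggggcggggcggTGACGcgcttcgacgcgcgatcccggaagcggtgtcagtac
Junb (chr8:84978749-84978868, minus strand): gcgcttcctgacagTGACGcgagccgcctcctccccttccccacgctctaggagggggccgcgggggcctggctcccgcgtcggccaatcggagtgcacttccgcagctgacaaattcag
Fos (chr12:85473740-85473889, plus strand): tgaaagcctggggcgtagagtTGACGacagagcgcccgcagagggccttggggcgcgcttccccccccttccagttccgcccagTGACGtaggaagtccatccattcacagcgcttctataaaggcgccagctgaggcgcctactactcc

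Jun, which rose, has TGACATCA beginning 45 bases before the start. Atf3 and Mafk, which also rose, have TGACG cores 7 and 41 bases before it (on the opposite strand in Atf3). Junb, which fell, has a TGACG 106 bases before its start, and Fos has a pair of them, 129 and 66 bases before. Over the 250 bases before each start, 6 of the 9 members with an entry held TGACG and 3 held TGANNTCA. Counted by window, 1 per annotated start, TGACG was in 7 of 11 and TGANNTCA in 4 of 11. Maff has 3 annotated starts, the second with the full CRE palindrome TGACGTCA, which matches both patterns. TGANTCA and the CArG box were in none of the 11 member windows. Bases further upstream than 250 were not searched, so known elements there would be missed. Among all 32851 windows of this length in the table, 17.8% held TGACG, 11.9% TGANNTCA, 6.75% TGANTCA and 1.47% a CArG box. A match is a description of letters, and such letters stood before members that rose, fell and did not pass.

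At high adhesion 4 AP-1 genes rose, Fosl1, Atf3, Mafk and Jun, and 1 fell, Junb. Fos, Fosb, Fosl2, Jund and Maff did not pass the test. Genes were compared within litters with edgeR's quasi-likelihood test and called at an adjusted p under 0.05. By that rule 9.55% of all tested genes were called, 4.71% upwards and 4.83% downwards. Among the 10202 tested genes that averaged 5 CPM or more, as all 10 members did, 12.1% were called. The median log2 fold change (high minus low) of the members was 0.08, against -0.00 over all tested genes, and their range was -0.34 to 0.45. The 5 calls rest on differences within litters. Without the replicate block none of the 5 passed in edgeR (adjusted p from 0.189 for Atf3 to 0.699 for Fosl1), a setting in which 0.243% of all genes were called. DESeq2 with the block called Fosl1 and Junb and not Atf3, Mafk or Jun (adjusted p = 0.0784, 0.219 and 0.155).

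**Figure D1:**
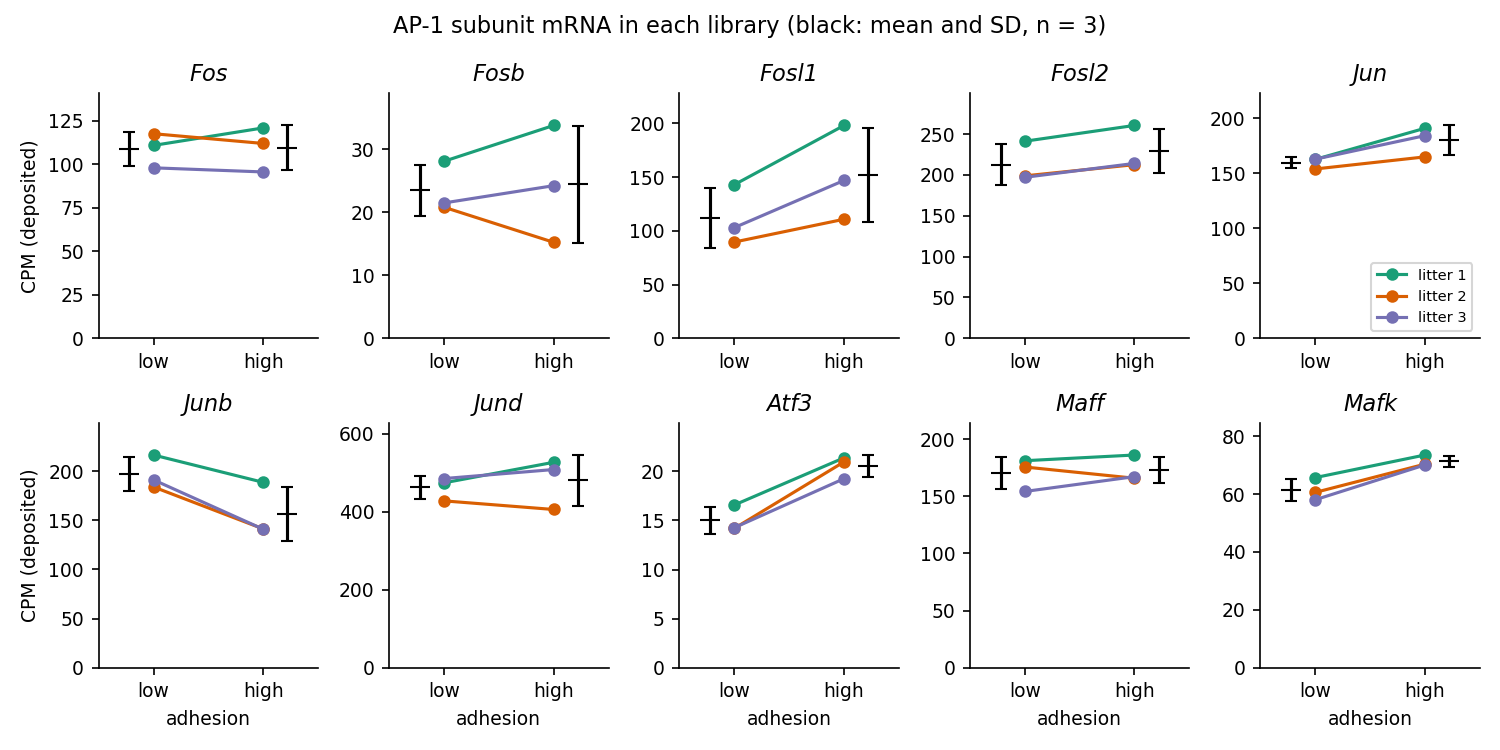
Deposited CPM of each AP-1 gene (vertical axis, from 0) at low and high adhesion, with 1 coloured line per litter and the mean and SD of 3 libraries in black. Lines of Fosl1, Jun, Atf3 and Mafk rise in 3 of 3 litters and those of Junb fall in 3 of 3, while the litters of Fosb diverge.

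Fosl1 (ENSMUSG00000024912) moved most among the FOS genes. In litters 1, 2 and 3 its level was 143, 89.5 and 103 CPM at low against 198, 111 and 147 CPM at high adhesion. Every litter was higher on the high substrate, but the groups overlapped, because litter 1 at low adhesion stood above litter 2 at high adhesion. The means were 112 ± 27.8 and 152 ± 43.9 CPM (SD, n = 3 each), and the fitted log2 fold change was 0.43 ± 0.05 (standard error), or 1.35-fold, with an edgeR adjusted p of 5.14e-07. Ratios within litters were 1.39, 1.24 and 1.43. The SDs hold the spread between litters, which the test within litters leaves out. The standard error here and below was computed from the edgeR F statistic, whose variance estimate borrows from all genes. It is not the spread of the litter ratios. Leaving out any 1 litter kept the fitted value between 0.39 and 0.48.

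Fos (ENSMUSG00000021250), the founding member, was 111, 118 and 98.0 CPM at low against 121, 112 and 95.6 CPM at high adhesion in litters 1 to 3. The groups overlapped almost fully, with 1 litter higher and 2 lower on the high substrate. The fitted log2 fold change was 0.00 ± 0.05 (edgeR adjusted p = 0.973). Fosl2 (ENSMUSG00000029135) was 241, 199 and 197 CPM at low against 261, 212 and 214 CPM at high adhesion. It was higher in 3 of 3 litters by a nearly even margin, 1.08-, 1.07- and 1.09-fold. Its fitted log2 fold change of 0.11 ± 0.04 did not pass (edgeR adjusted p = 0.111).

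Fosb (ENSMUSG00000003545) was 28.1, 20.8 and 21.5 CPM at low against 33.8, 15.2 and 24.2 CPM at high adhesion. The litters went opposite ways. The ratio of high to low was 1.20 in litter 1 (exact Clopper-Pearson 95% interval of the counts 1.04 to 1.39) and 0.733 in litter 2 (0.607 to 0.885), while in litter 3 it was 1.13 (0.961 to 1.33). These intervals cover counting error only. The fitted log2 fold change was 0.04 ± 0.10 (edgeR adjusted p = 0.889), the largest standard error of the 10 members. That error rests in part on how far the litters disagreed and in part on all genes. It is not the spread of the litter log2 ratios, which were 0.27, -0.45 and 0.17.

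Among the JUN genes, Junb (ENSMUSG00000052837) was the only one lower at high adhesion in the fit. JUNB is known as a weaker activator than JUN that can oppose it at some promoters. Its level was 216, 184 and 191 CPM at low against 188, 141 and 141 CPM at high adhesion in litters 1, 2 and 3. All 3 litters were lower on the high substrate, and the groups overlapped only through the high adhesion library of litter 1. The means were 197 ± 17.1 and 157 ± 27.4 CPM (SD, n = 3 each), a log2 fold change of -0.34 ± 0.05 and a 1.27-fold fall (edgeR adjusted p = 1.18e-05). Leaving out any 1 litter kept it between -0.41 and -0.29.

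Jun (ENSMUSG00000052684) rose. It was 163, 154 and 163 CPM at low against 191, 165 and 184 CPM at high adhesion, so the lowest high library stood just above the highest low library and the groups did not overlap. The log2 fold change was 0.17 ± 0.04, or 1.12-fold (edgeR adjusted p = 0.0123). Without litter 1 or without litter 3 the adjusted p was 0.133 and 0.1201. Jund (ENSMUSG00000071076), the most abundant member, is known for steady expression in resting cells. It was 474, 428 and 486 CPM at low against 527, 406 and 509 CPM at high adhesion. Litters 1 and 3 were higher and litter 2 lower on the high substrate, and it did not pass (log2 fold change 0.05 ± 0.04, edgeR adjusted p = 0.590).

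Atf3 (ENSMUSG00000026628), a stress-induced partner of JUN proteins that often represses transcription, had the largest fitted change of the members. It was low throughout, with 16.6, 14.2 and 14.3 CPM at low against 21.4, 21.0 and 19.2 CPM at high adhesion. The 3 high libraries all stood above the 3 low ones. The means were 15.0 ± 1.35 and 20.5 ± 1.13 CPM (SD, n = 3 each), with a log2 fold change of 0.45 ± 0.08 and a 1.37-fold rise (edgeR adjusted p = 0.000589). Each library gave 187 to 273 counts, and the counting interval of the ratio lay above 1 in each litter.

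Of the small MAF genes, Mafk (ENSMUSG00000018143) rose and Maff (ENSMUSG00000042622) did not pass. Mafk was 65.7, 60.5 and 58.0 CPM at low against 73.5, 70.3 and 70.0 CPM at high adhesion, with no overlap between the groups. Its log2 fold change was 0.21 ± 0.05, or 1.16-fold (edgeR adjusted p = 0.0118), and without litter 3 it did not pass (adjusted p = 0.147). Maff was 181, 176 and 154 CPM at low against 186, 166 and 167 CPM at high adhesion, higher in 2 of 3 litters (log2 fold change 0.02 ± 0.04, edgeR adjusted p = 0.854). The groups did not overlap for 3 members, Jun, Atf3 and Mafk, which were all higher at high adhesion. Over all tested genes 7.82% did so upwards and 7.60% downwards. Counted by sign alone, 5 members were higher in 3 of 3 litters and 1, Junb, lower in 3 of 3, where 21.1% and 20.2% of all tested genes were.

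**Figure D2:**
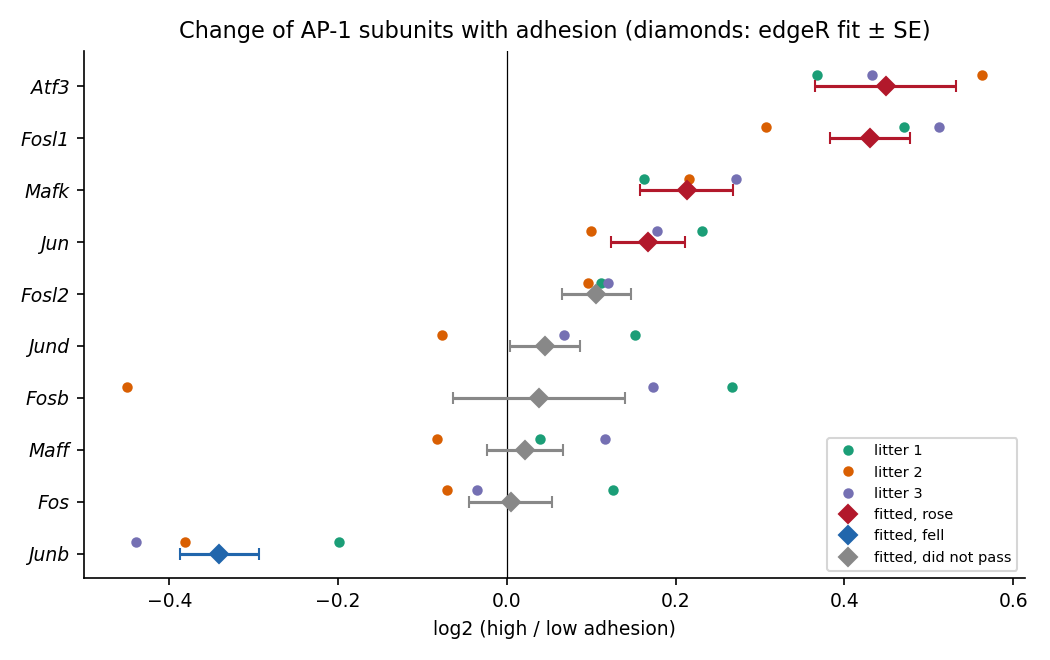
Log2 ratio of high to low adhesion (horizontal axis) for each AP-1 gene, as the ratio of deposited CPM in each litter (circles) and as the edgeR fit with its standard error (diamonds, coloured by call). Atf3 and Fosl1 lie near 0.4, Junb lies near -0.3 with all its litters below 0, and Fosb has the widest spread of litters.

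Several members share DNA with a gene on the other strand, and the strand setting of the authors' counting is not given in the sources used here. In the GENCODE M21 annotation, exons of Fosl1 overlap those of Ccdc85b, Jun those of the antisense RNA Junos, Junb those of Prdx2, Jund those of Gm11175 and Mafk those of Tmem184a. Reads of such a pair may not be separable, so these members are uncertain to that extent. Prdx2, a peroxide-reducing enzyme gene, was 102 ± 5.27 CPM at low against 92.0 ± 4.27 CPM at high adhesion (SD, n = 3 each). It fell with Junb, with an edgeR adjusted p of 0.0467 and a log2 fold change of -0.15, and its part in the fall of Junb was not tested. Ccdc85b, at 27.3 and 25.3 CPM, was lower at high adhesion in 3 of 3 litters while Fosl1 was higher, and it did not pass (edgeR adjusted p = 0.398). Junos stood at 0.657 and 1.11 CPM against 160 and 180 CPM for Jun, and Tmem184a at 0.101 and 0.0786 CPM against 61.4 and 71.3 CPM for Mafk. Atf3, Fos, Fosb, Fosl2 and Maff had no overlapping gene, and Atf3 had whole counts in 6 of 6 libraries.

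The subunits also differed between litters, tested with the substrate kept in the model. In the edgeR test of the litter terms 7 of 10 members passed, while 17.9% of all tested genes and 21.0% of those of at least 5 CPM did. Fosb and Fosl1 spread most, 1.69-fold and 1.67-fold from the lowest to the highest litter (fitted log2 ranges 0.76 and 0.74, edgeR adjusted p = 0.00130 and 8.40e-10). Litter 1 was highest for both and litter 2 lowest. Without litter 1 the log2 ranges were 0.34 for Fosb and 0.30 for Fosl1, and without litter 2 they were 0.42 and 0.44, and both genes still passed. Over both substrates Fosl1 averaged 170, 100.1 and 125 CPM in litters 1, 2 and 3, and Fosb 31.0, 18.0 and 22.9 CPM.

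Junb (log2 range 0.31) and Fosl2 (0.28) were highest in litter 1, at 202 and 251 CPM. Neither passed between litters 2 and 3 alone, where the ranges were 0.018 and 0.010 (edgeR adjusted p = 0.918 and 0.953). Jund stood lowest in litter 2, at 417 CPM against 501 and 497 CPM, and Fos lowest in litter 3, at 96.8 CPM against 116 and 115 CPM. Jund did not pass without litter 2, nor Fos without litter 3 (edgeR adjusted p = 0.996 and 0.985). Maff passed narrowly (log2 range 0.19, edgeR adjusted p = 0.0461) and did not in limma-voom or DESeq2 (adjusted p = 0.0510 and 0.491), nor in edgeR without litter 1 or litter 3 (adjusted p = 0.368 and 0.383). The 3 members that did not pass between litters, Atf3, Mafk and Jun, were the 3 whose substrate groups did not overlap. The match is not independent, because both come from the same libraries and a wide spread between litters makes groups overlap. For Atf3 the litter range was 0.18 against a substrate difference of 0.45. For Fosl1 it was 0.74 against 0.43 over the 3 litters and 0.74 against 0.39 without litter 3. It was 0.30 against 0.42 without litter 1 and 0.44 against 0.48 without litter 2.

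**Figure D3:**
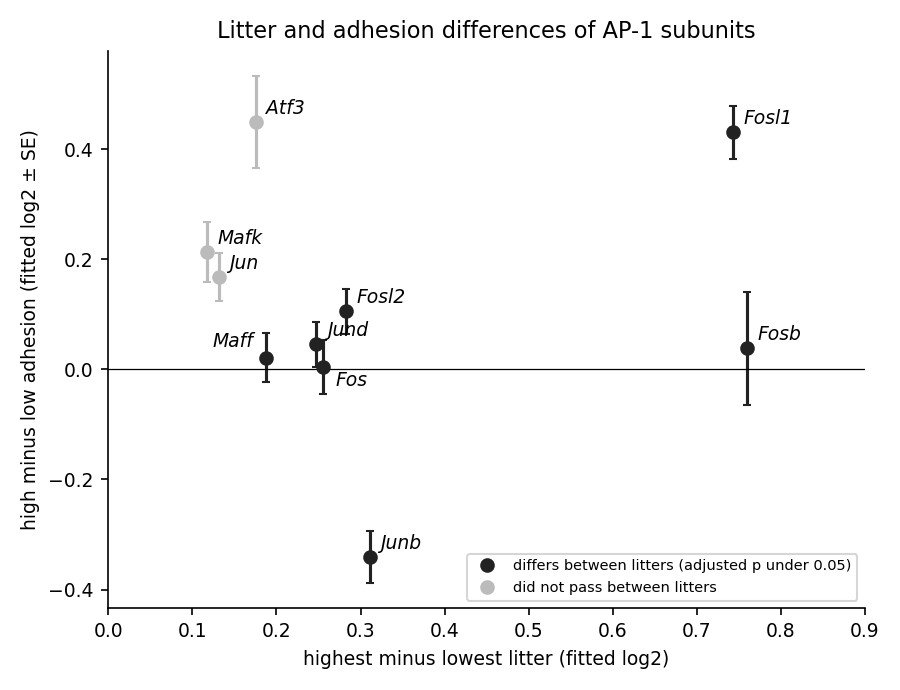
Each AP-1 gene by its fitted log2 range between litters (horizontal axis) and its fitted log2 difference between high and low adhesion with standard error (vertical axis), black where the litter test passed and grey where it did not. Fosl1 is far from 0 on both axes, Fosb on the litter axis and Atf3 on the adhesion axis, and Junb lies about as far out on either, at 0.31 and -0.34.

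To rank the members by level, their CPM were taken per kilobase of transcript, with the median length of the coding transcripts in GENCODE M21. Jund was the most abundant at 283 ± 27.9 CPM per kb (SD over 6 libraries), followed by Fosl1 at 119 ± 35.6, Junb at 97.8 ± 16.6 and Maff at 91.0 ± 6.15 CPM per kb. Below these came Jun (53.3), Fos (51.8), Fosl2 (33.8), Mafk (22.3), Atf3 (9.13) and Fosb (6.65 CPM per kb). Libraries of Jund did not overlap with those of any other member. Neighbours whose ranges over the libraries overlapped were Fosl1 and Junb, Junb and Maff, Jun and Fos, and Atf3 and Fosb. The place of Fosl1 depends on its length. It has 2 annotated coding transcripts, with a median of 1.11 kb and a longest of 1.86 kb, and with the longest it stood below Junb and Maff. The labels do not say whether the libraries cover whole transcripts.

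By this measure Fosl1 made up 13.4% ± 2.29 of the summed AP-1 mRNA per kb at low and 17.1% ± 2.64 at high adhesion, while Junb went from 14.6% ± 0.196 to 10.99% ± 0.873 (SD, n = 3 each). The share of Fosl1 was higher and that of Junb lower on the high substrate in 3 of 3 litters. The gain of Fosl1 depended on the length used, with 3.74 percentage points at the median length, 2.55 at the longest and 2.099 without a length correction. The FOS genes together held 25.5% and 29.1% and the JUN genes 58.6% and 54.8% of the pool, again with the same direction in 3 of 3 litters. Without the length correction these shares were 29.9% and 32.1% for FOS and 53.9% and 51.2% for JUN. By member at the median length, Fosl1 changed by 3.74 and Junb by -3.60 percentage points. The other FOS and JUN genes changed by -0.63 to 0.48. In 3 of 3 litters the share of Fos was lower and that of Jun higher, opposite to their families. Summed CPM of the FOS genes was higher at high adhesion in 3 of 3 litters and that of the JUN genes in 1 of 3.

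Within a library, the ratio of Fosl1 to Junb CPM was higher on the high substrate by 0.67, 0.69 and 0.95 on the log2 scale in litters 1, 2 and 3, a mean of 1.71-fold. The ratio of Jun to Junb was higher by 0.43, 0.48 and 0.62, and that of Fosl1 to Fos by 0.35, 0.38 and 0.55. These pairs were picked with the changes in view. They are descriptions without a test, since an exact sign-flip test over 3 litters cannot go below a two-sided p of 0.25.

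**Figure D4:**
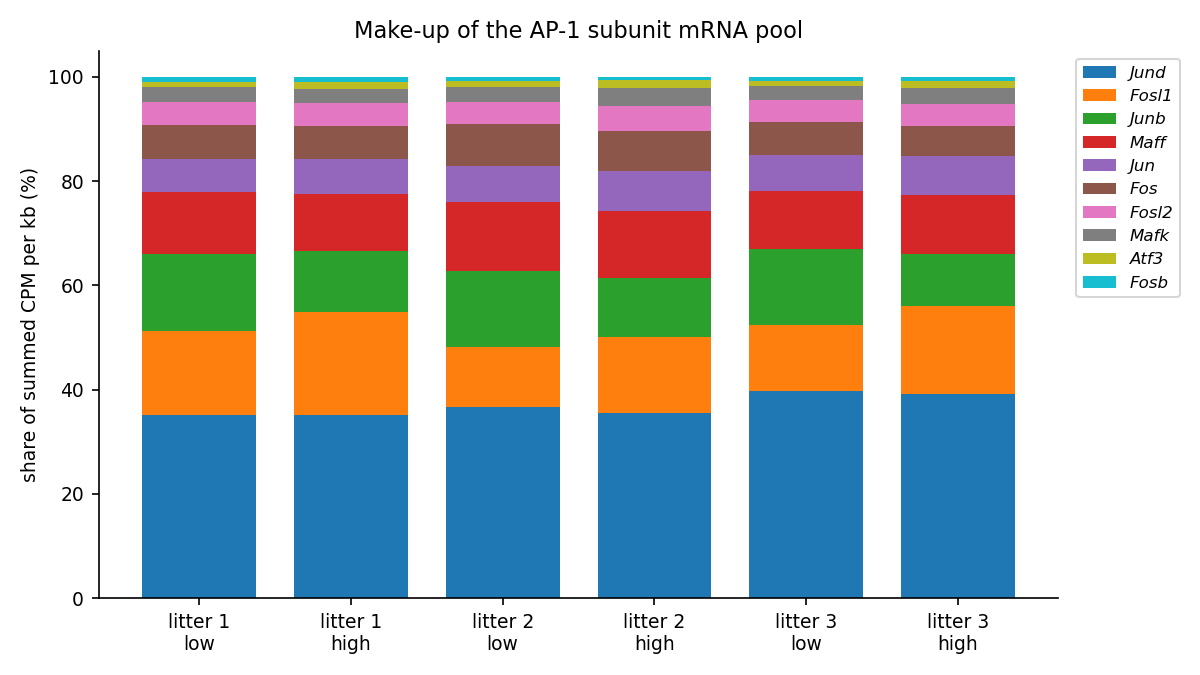
Share of each gene in the summed CPM per kilobase of the 10 AP-1 genes (vertical axis, percent), 1 bar per library in pairs by litter, with the median transcript length. The Fosl1 segment is wider and the Junb segment narrower in the high adhesion bar of each litter, and Jund holds 35.1% to 39.8% of every bar.

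Among other basic leucine zipper genes, which pair or compete with AP-1 proteins, 15 were tested. Of these 3 rose and 1 fell, or 26.7% called where 9.55% of all tested genes were, with a median log2 fold change of -0.04. The 1 that fell was Cebpb, a regulator of inflammatory genes and differentiation, from 553 ± 113 to 464 ± 123 CPM (SD, n = 3 each), lower in 3 of 3 litters (edgeR adjusted p = 5.34e-05). Atf4, the effector of the integrated stress response, rose 1.14-fold, its relative Atf5 1.11-fold and Creb5 1.23-fold. The AP-1 antagonists Jdp2, Batf and Batf3 were lower at high adhesion in the fit and did not pass (edgeR adjusted p = 0.573, 0.750 and 0.912).

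In the MAF and CNC network, whose members are partners of MAFF and MAFK, 1 of 9 tested genes rose, or 11.1%, a share near the 9.55% called over all genes. This was Bach2, a repressor that binds DNA with small MAF proteins, from 51.6 ± 2.03 to 62.0 ± 9.70 CPM (edgeR adjusted p = 0.0175, SDs over 3 libraries). Mafg, the third small MAF gene, was 86.9 and 86.2 CPM, and Nfe2l2, which encodes NRF2, 74.5 and 70.6 CPM. Neither passed.

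Of 21 tested genes for kinases and promoter factors upstream of AP-1, 0 rose and 2 fell, close to the 9.55% called over all genes. Mapk3, which encodes the kinase ERK1, went from 36.8 ± 3.78 to 28.5 ± 1.90 CPM with no overlap between the groups (edgeR adjusted p = 0.000402, SDs over 3 libraries). Elk3, a cofactor of serum response factor, fell 1.14-fold (edgeR adjusted p = 0.0367). Srf, which encodes that factor, was 204 and 214 CPM (edgeR adjusted p = 0.384). Of 8 genes for decay of AP-1 mRNAs or proteins, 0 were called by edgeR, DESeq2 or limma-voom, and 2 had an unadjusted edgeR p under 0.05. So did 3250 of all 14834 tested genes, a similar share. Zfp36l1, an mRNA decay factor gene, was 234 and 230 CPM and Trib1, of a ubiquitin ligase adaptor, 93.1 and 101.6 CPM.

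Textbook AP-1 target genes went both ways. Of 22 tested genes 3 rose and 7 fell, or 45.5% called where 9.55% of all tested genes were, with a median log2 fold change of -0.05. Plaur, the urokinase receptor gene, rose 1.25-fold from 232 ± 16.4 to 292 ± 41.4 CPM with no overlap (edgeR adjusted p = 6.38e-06, SDs over 3 libraries). The other 2 that rose were Plau, which encodes urokinase, and Hmox1, which encodes heme oxygenase 1. The cytokine gene Il11 fell most, from 52.4 ± 22.3 to 28.7 ± 9.99 CPM (SD, n = 3 each), followed in adjusted p by the chemokine gene Ccl2, from 344 ± 155 to 236 ± 118 CPM, and the matrix protein gene Spp1, from 35.5 ± 7.34 to 24.4 ± 3.58 CPM. All 3 were lower in 3 of 3 litters. Tgfb1, Ptgs2, Mmp13 and Hbegf were the others that fell. Between litters 17 of the 22 differed, where 17.9% of all tested genes did. Of the list, Mmp1a was listed at 0 in every library and Mmp10 was under the filter. Without the replicate block no gene of these 5 lists passed.

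**Figure D5:**
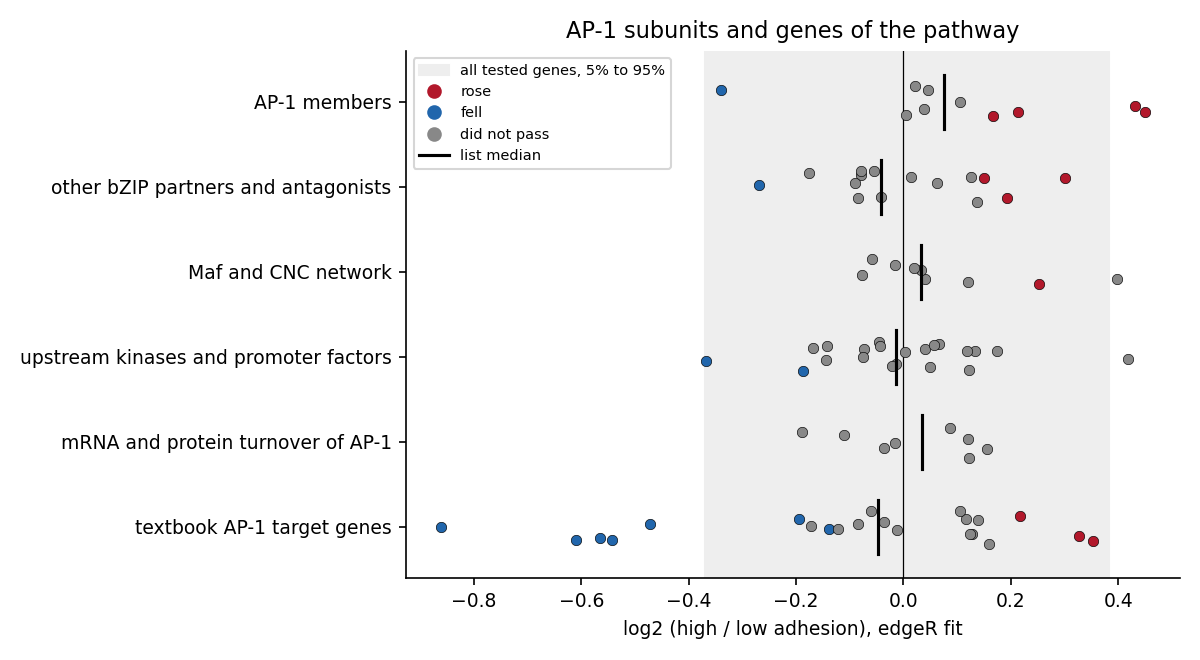
Fitted log2 difference between high and low adhesion (horizontal axis) of each tested gene in the AP-1 members and 5 lists of the pathway, coloured by call, with the median of each list as a bar and the span between the 5% and 95% quantiles of all tested genes in grey. Medians lie within 0.1 of 0 in every list. Of called genes, Atf3 and Fosl1 lie above the grey span and the 5 below it (Il11, Tgfb1, Ccl2, Spp1 and Mmp13) are targets.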

How the data were processed

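Polyadenylated RNA of 6 libraries was analysed from 1 deposited table. The authors deposited estimated counts per gene, some of them fractional, and CPM scaled to each library's summed counts, per the file headers. Per the submitters' processing notes the tools were fastp 0.24.0, STAR 2.7.11 and featureCounts of Subread 2.1.1 with build GRCm39, and the sources used here do not give the annotation, strand setting or rule for shared reads. Printed CPM are the authors' deposited values.

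Counts were rounded and tested with edgeR 4.0.16 in R 4.3.3 (filterByExpr, TMM, robust quasi-likelihood fit) with litter as a block, and adhesion and litter terms were tested two-sided with Benjamini-Hochberg adjustment over 14834 genes. The design is litter-matched per the labels, and same-litter libraries deviated together (correlations 0.568, 0.566 and 0.355 over genes). The fit has 2 residual degrees of freedom per gene. Alternatives used DESeq2 1.42.0, limma-voom (limma 3.58.1), other scaling and filters, and each litter left out. On simulated data for the adhesion comparison over 14834 genes, 47.8% of 1.25-fold, 68.7% of 1.5-fold and 86.4% of 2-fold changes were recovered. There 67, 67 and 66 genes were changed, drawn at random over all levels, while 1416 were called in the data. Smaller changes were not tried, so these shares do not apply to the members as such.

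Members and lists were chosen with earlier results of these data known. Named genes are the members, up to 4 called genes of lowest adjusted p per list (or the 2 of highest CPM), and the 3 genes of at least 5 CPM most like each called member. Other genes named were chosen after their values were seen.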

Additional observations from a re-analysis of the deposited data

How the results depend on the processing

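Fosl1 and Junb kept their direction and passed in 9 of 10 alternatives, all but the fit without the replicate block. In that fit the log2 changes of Fosl1, Junb, Atf3, Jun and Mafk were 0.44, -0.33, 0.45, 0.17 and 0.21, none past the threshold, 36 genes were called in place of 1416, and the lists of partners, MAF and CNC genes, upstream genes and targets had 0 called in place of 4, 1, 2 and 10. DESeq2 called 406 genes, with Atf3, Jun and Mafk at 0.45, 0.17 and 0.21 no longer past, and 2, 0, 1 and 6 genes in those lists. Leaving out each litter gave 908 to 1553 genes, 0.14 to 0.19 for Jun, 0.19 to 0.25 for Mafk, 2 to 3 partners, 1 to 3 upstream genes and 0 to 2 turnover genes. The 5 called members kept their sign in every alternative run. Signs of members that did not pass turned for Fos (-0.048 to 0.033), Fosb (-0.10 to 0.21) and Maff (-0.022 to 0.063) with litters left out, and for Fos without a filter (-0.00043). Over genes of at least 5 CPM 1 turnover gene passed.

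Between litters, DESeq2 called 866 genes in place of 2655, and 1384 to 2687 were called with a litter left out. Fos did not pass in DESeq2 (log2 range 0.25), nor Maff in DESeq2 (0.18), limma-voom (0.19) or without a filter (0.17). With litters left out the log2 ranges were 0.30 to 0.74 for Fosl1, 0.34 to 0.76 for Fosb, 0.0029 to 0.25 for Fos, 0.010 to 0.28 for Fosl2, 0.018 to 0.31 for Junb, 0.00067 to 0.25 for Jund and 0.089 to 0.18 for Maff. With a litter left out the fit has fewer samples and 1 residual degree of freedom. The cause of the other losses was not tested. Scaling moved the median of all genes by less than 0.1.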

Other observations

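Genes whose log2 CPM over the 6 libraries followed the called members most closely were looked up among 9387 tested genes of at least 5 CPM that had a symbol, leaving out the members and predicted genes. With so many genes and 6 libraries, which share litters and substrates, high correlations arise readily, so they are given as a description. For Fosl1 the closest were Perp (Pearson r = 0.998), a desmosome-associated p53 target, Nop2 (0.995) and Pttg1ip (0.992). For Mafk they were Galnt17 (0.997), the keratin gene Krt8 (0.990) and Rbm15b (0.989). Jun was followed by Edrf1 (0.994), Csnk1d (0.993) and Arv1 (0.991), and Atf3 by Foxj2 (0.995), Slc29a2 (0.993) and the LIM protein gene Ajuba (0.993). For Junb the closest were Itm2b (0.990), Itga5 (0.987), which encodes a subunit of the main fibronectin receptor, and Mlst8 (0.987).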
